A study of Mus musculus with 8 samples.

Results

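Expression of 50 interferon-stimulated genes and genes of major histocompatibility complex (MHC) class I antigen presentation was compared between CCR8+ and CCR8− conventional CD4+ T (Tconv) cells from tumors. The genes were taken by symbol from a fixed list, and 49 of the 50 had a mean of at least 10 normalized counts over the 8 bulk RNA-Seq libraries, against 11032 of all 11233 genes in the table. All 8 libraries came from Foxp3EGFP-DTR mice carrying subcutaneous B16-F10 tumors, a transplantable mouse melanoma, and all of these mice had received diphtheria toxin (DTx), which kills their regulatory T (Treg) cells because the diphtheria toxin receptor and EGFP are expressed from the endogenous Foxp3 gene. The study's mice were of either sex and 8 to 14 weeks old. The study's methods give 4 DTx injections of 1 µg on days 7, 9, 11 and 13 after tumor implantation and sorting on day 16, whereas the title of its list of genes for these libraries gives day 18. EGFP-negative CD4+ cells were sorted by surface CCR8, a chemokine receptor, into a positive and a negative population with 4 replicates each. Libraries of Treg-sufficient mice do not enter this comparison, so it contrasts populations of DTx-treated mice only.

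Interferons act through receptors that activate STAT proteins. Type I interferons drive a complex that contains STAT2 and IRF9 and binds the interferon-stimulated response element (ISRE), whereas the response to interferon-γ runs through the gamma-activated site (GAS). The genes they induce include RNA sensors, antiviral effectors, GTPases that attack pathogen vacuoles, and the machinery that loads peptides onto MHC class I, and in tumors interferon-γ from T cells is a well-known inducer of the last.

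Libraries held between 12067780 and 17802628 reads, and 3 reads, the level under which a value was not told apart from 0, came to between 2.21 and 3.42 normalized counts. CCR8− replicate 1 stood apart: 242 genes were at 0 there although each of the other 7 libraries had 100 normalized counts or more of them. CCR8+ replicate 1 lacked 44 genes by this measure, CCR8+ replicate 3 lacked 36, and the count was 0 in the other 5. The same 3 libraries held all zeros among the 49 genes, with 4, 2 and 3 of them at 0. The 7 CD4 T cell markers measured summed to between 77686 and 114153 normalized counts, with none at 0, and the CD8 markers to between 478 and 3805. For macrophages and monocytes the sums by replicate number were 8605, 14782, 6102 and 96897 in the CCR8− libraries and 38951, 25301, 5081 and 29746 in the CCR8+ libraries, with 4 of the 14 markers at 0 in CCR8− replicate 1 and 3 at 0 in both libraries of replicate 3. Melanoma markers varied more widely, with sums of 105, 4413, 5574 and 17389 (CCR8−) and of 308, 5177, 232 and 21841 (CCR8+) in the same order. In CCR8− replicates 1, 2 and 3 the macrophage sum was mostly Ccr2 (6093, 6717 and 2662) and Ly6c2 (2476, 3555 and 1940), which T cells can express too. In CCR8− replicate 4 and the CCR8+ libraries most of it came from the other markers. By the mean log2 value 11 of the 14 macrophage markers were higher in CCR8+ cells (median log2 fold change 2.04) and 7 of 7 melanoma markers lower (−1.06), with 0 of either past the adjusted test, and the sums of the groups overlapped. Both CD8 markers had lower means in CCR8+ cells (median −0.73), with median differences of 0.88, −0.52, −1.59 and −1.69 within replicates 1 to 4. The part of these cells in the values below was not tested. In bulk libraries fewer cells of a type and less RNA per cell cannot be told apart.

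Interferon-stimulated genes had lower mean levels in CCR8+ than in CCR8− Tconv cells for the most part, but no gene passed the adjusted test. Of the 49 genes, 37 had a lower mean in CCR8+ cells, or 75.5% against 47.6% of all tested genes. The median of their log2 fold changes was −0.39, and that of all tested genes 0.04. Among the 44 with more than 3 reads in every library, the median was −0.43. The lower means were mostly those of genes outside MHC class I, since 5 of the 7 MHC class I genes had a higher mean in CCR8+ cells.

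With limma and Benjamini-Hochberg adjustment over all genes, 0 of the 49 passed an adjusted p of 0.05, and 0% of all tested genes did (smallest adjusted p among the 49, 0.838). At an unadjusted p under 0.05, 3 of the 49 were lower in CCR8+ cells (Gbp7, Nlrc5 and Irf9), against 2.29% of all genes, and 1 was higher (Irf8), against 2.8%. Gbp7 alone had all 4 CCR8+ values under all 4 CCR8− values, 1 of 49 against 2.03% of all genes, and 0 had all of them above, against 2.37%. The share of genes without overlap is thus near that of all genes. The count of genes whose groups did not overlap depended on the library left out. It was largest, at 9, without CCR8− replicate 3, a library with no unusual zeros. That library had the smallest total of the 8 (11469410 normalized counts). It also had the lowest median level of the 49 genes among the CCR8− libraries. Leaving out a low CCR8− library favors lower CCR8+ values without overlap. All 9 were lower in CCR8+ cells, against 3.71% of all genes, and the added names were Stat2, Zbp1, Ifit1, Ifit3, Rsad2, Rtp4, Ifi35 and Ifi47. Leaving out any other library gave between 1 and 5 genes in either direction, against 6.34% to 8.77% of all genes. With limma's library quality weights, which ranged from 0.134 for CCR8− replicate 1 to 8.72 for CCR8− replicate 2, 3 of the 49 passed the adjusted test, against 1.02% of all genes: Irf8 (log2 fold change 1.76), Irf9 (−0.98) and Gbp4 (−0.93), with adjusted p-values of 0.0397, 0.0400 and 0.0394. With 4 libraries a group the smallest p of the exact two-sided permutation test was 0.0286.

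**Figure D1:**
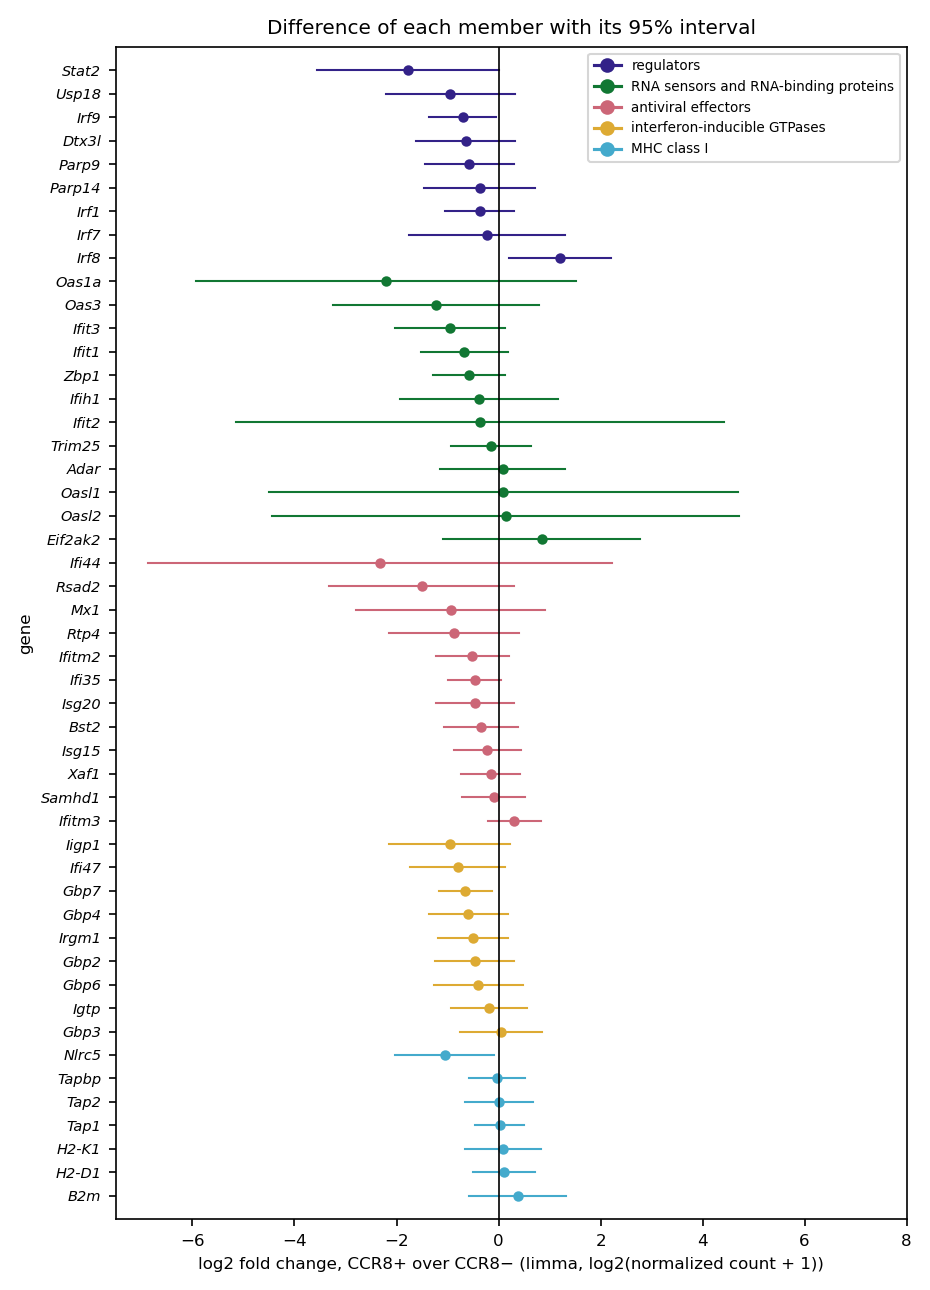
Log2 fold change of CCR8+ over CCR8− cells for each of the 49 genes (point), with its 95% interval from limma (line), on the scale of log2(normalized count + 1). Genes are ordered by role and then by size. The points of 37 genes lie left of 0, and most intervals cross 0; the intervals of Irf9, Gbp7 and Nlrc5 lie below 0 and that of Irf8 above it.

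The promoters of these genes were searched for both interferon motifs, since the group is defined by its response to interferon. RefSeq held a promoter for 38 of the 50 genes in build GRCm38.p6, and the 250 bases before the start were read on both strands. An ISRE, written GAAANNGAAA, was found in 15 of the 38 genes (39.5%) and in 3.46% of all 27025 genes with a promoter. A GAS, written TTCNNNGAA, was found in 10 of the 38 (26.3%) and in 8.13% of all genes. Both were found in 4 of the 38, namely Oas1a, Bst2, Gbp7 and Igtp, and in 0.4% of all genes. A match says only that these letters are present, and matches can overlap: ISRE and GAS matches shared bases in 1 gene, Bst2, and matches of the same motif in 5. Among the GTPases 5 of 6 searched genes had an ISRE in these exact letters, against 1 of 5 MHC class I genes and 1 of 6 regulators. A gene without a match may hold an element in other letters or outside the 250 bases, which was not searched. The windows below are printed 5′ to 3′ on the strand of the gene, the plus strand of GRCm38.p6 for each of them, with the match in capitals. They are those of Gbp7, the gene whose groups did not overlap, of Igtp, another GTPase, of Stat2 and Ifit3 from the regulators and the RNA-binding proteins, of Irf8 and Irf1, whose matches were GAS matches only, and of B2m, the 1 MHC class I gene with a match among the 5 searched. The ISREs of Gbp7, Stat2 and Ifit3 read as the reverse complement, TTTCNNTTTC. In lower case, the Igtp window also holds the GAS match ttctaggaa and the Irf8 window a further GAS match, ttcagagaa.
Gbp7, ISRE, chr3:142530263-142530312: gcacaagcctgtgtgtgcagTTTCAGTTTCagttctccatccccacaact
Stat2, ISRE, chr10:128270256-128270305: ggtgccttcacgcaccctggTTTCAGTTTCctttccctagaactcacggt
Ifit3, ISRE, chr19:34583387-34583436: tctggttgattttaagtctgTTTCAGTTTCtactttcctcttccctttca
Igtp, ISRE, chr11:58199502-58199551: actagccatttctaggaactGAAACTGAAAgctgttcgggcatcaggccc
B2m, ISRE, chr2:122147528-122147577: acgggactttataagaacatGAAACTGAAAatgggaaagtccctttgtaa
Irf8, GAS, chr8:120736167-120736215: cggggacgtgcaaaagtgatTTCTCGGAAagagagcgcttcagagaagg
Irf1, GAS, chr11:53769904-53769952: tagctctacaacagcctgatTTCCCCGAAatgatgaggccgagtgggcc

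Among the 9 regulators, 8 had a lower mean in CCR8+ cells, and the exception was Irf8. Their median log2 fold change was −0.57 and their range −1.78 to 1.21. Irf8 encodes a transcription factor best known for its role in myeloid and B cell development. It had 322, 251, 518 and 927 normalized counts in CCR8− replicates 1 to 4. In CCR8+ replicates 1 to 4 it had 592, 930, 1586 and 1283. The groups overlapped through CCR8− replicate 4, which lay above CCR8+ replicate 1 and just under CCR8+ replicate 2. The log2 fold change was 1.21 (SE 0.45, n = 4 and 4, exact two-sided permutation p = 0.0571; limma adjusted p = 0.838), or 2.32-fold higher. Macrophages express Irf8 too: among CCR8− libraries it was highest in replicate 4, which had the largest sum of macrophage markers (96897 normalized counts), and among CCR8+ libraries in replicate 3, which had the smallest of its group (5081). The part of macrophages in its difference was not tested. Irf8 was also the only gene of the 49 that was higher in CCR8+ cells in all 4 same-numbered pairs, against 8.44% of all genes.

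Irf9 encodes the DNA-binding subunit of the type I interferon complex, and Stat2 its activating partner. Irf9 had 1441, 2000, 1374 and 1429 normalized counts in CCR8− replicates 1 to 4. It had 1520, 1056, 631 and 797 in CCR8+ replicates 1 to 4. The 3 lowest values were all from CCR8+ cells, but CCR8+ replicate 1 lay above 3 of the CCR8− libraries, and the log2 fold change was −0.70 (SE 0.30, exact permutation p = 0.114). Stat2 had 1034, 311, 151 and 259 in CCR8− and 49.7, 176, 46.8 and 215 in CCR8+ replicates 1 to 4. Its fold change was −1.78 on the log2 scale (SE 0.81, exact permutation p = 0.0857) but −0.54 with replicates 2 and 4 alone, and CCR8− replicate 3 was the CCR8− library that lay within the CCR8+ range. CCR8− replicate 1, where Stat2 was highest, was also the library with 242 unusual zeros.

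Usp18, which removes ISG15 from proteins and dampens signaling from the type I interferon receptor, had 837, 536, 256 and 408 normalized counts in CCR8− and 586, 269, 115 and 188 in CCR8+ replicates 1 to 4. It was lower in CCR8+ cells in each same-numbered pair, although the groups overlapped (log2 fold change −0.94, SE 0.58, exact permutation p = 0.229). Irf1, a factor strongly induced by interferon-γ, was the most abundant regulator per length, with 1600 normalized counts per kb of exon. It had 4854, 8975, 5659 and 9089 normalized counts in CCR8− and 6731, 6754, 3085 and 5755 in CCR8+ replicates 1 to 4. Its values overlapped widely, with a log2 fold change of −0.37 (SE 0.31, exact permutation p = 0.400). The other 4 regulators, Irf7, the amplifier of type I interferon production, and the ADP-ribosylation genes Parp9, Dtx3l and Parp14, had log2 fold changes from −0.65 for Dtx3l to −0.23 for Irf7. Irf7 had 171, 2360, 1558 and 1450 normalized counts in CCR8− and 943.5, 1448, 590 and 603 in CCR8+ replicates 1 to 4. Once CCR8− replicate 1 was left out its groups did not overlap, but CCR8− replicate 4 and CCR8+ replicate 2 were nearly equal. In that setting 4.26% of all genes were lower in CCR8+ cells without overlap. With library quality weights the log2 fold change of Irf7 was −1.12 (limma adjusted p = 0.143). Parp9 and Dtx3l lie on opposite strands and share exonic bases, so their reads may not be fully separate.

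**Figure D2:**
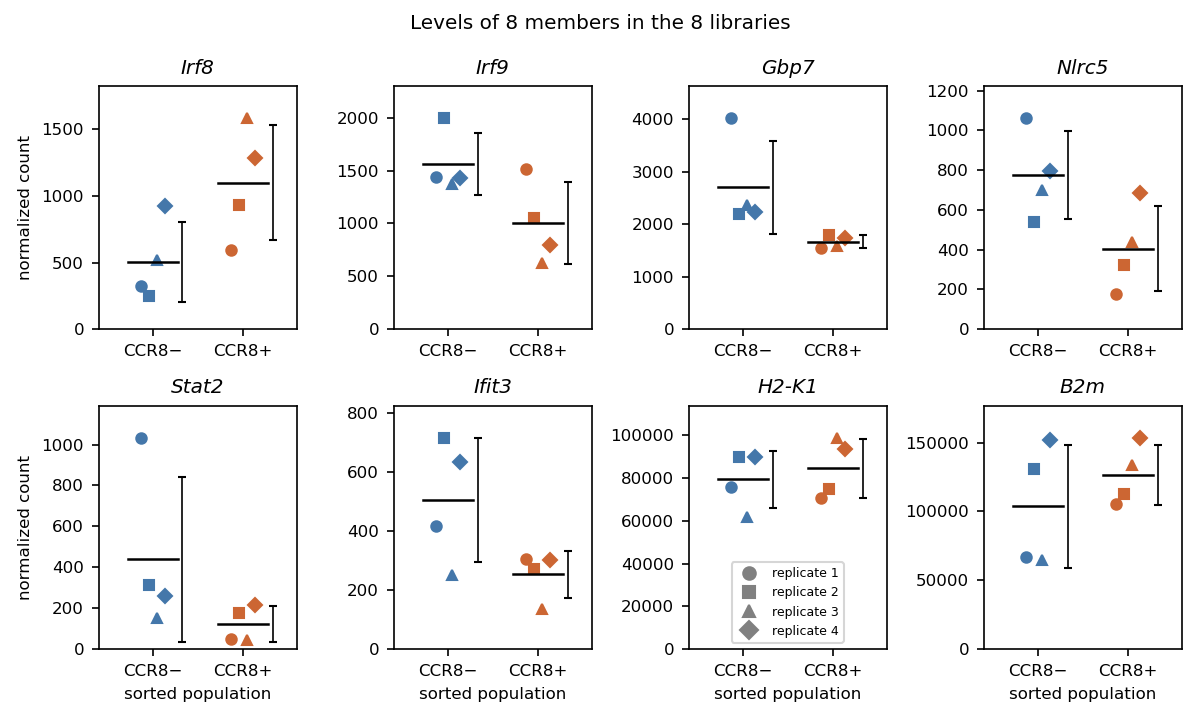
Normalized counts of Irf8, Irf9, Gbp7, Nlrc5, Stat2, Ifit3, H2-K1 and B2m in the 4 CCR8− libraries (blue) and the 4 CCR8+ libraries (orange), with 1 point per library, the shape of the point giving the replicate number, a black line at the mean and bars of 1 SD. The points of Gbp7 do not overlap between groups, from 1549 to 1799 in CCR8+ and from 2193 to 4031 in CCR8− libraries; those of the other 7 genes do.

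RNA sensors and RNA-binding proteins had a lower mean in CCR8+ cells for 8 of 12 tested genes, with a median log2 fold change of −0.37 and none at an unadjusted p under 0.05. Ifit3 and Ifit1 belong to a family that binds viral RNA, and Zbp1 senses nucleic acids in the Z form. Ifit3 had 417, 716, 251 and 635 normalized counts in CCR8− and 305, 270, 135 and 300 in CCR8+ replicates 1 to 4. CCR8− replicate 3 was the single CCR8− library inside the CCR8+ range, and the log2 fold change was −0.96 (SE 0.49, exact permutation p = 0.114). Of the Ifit3 sequence 51.2% of 50-base words are shared with Ifit3b. The study used uniquely mapped reads, so reads from the shared sequence may be missing from the values of Ifit3.

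Ifit1 had 1306, 801, 434 and 696 normalized counts in CCR8− and 549, 314, 603 and 472 in CCR8+ replicates 1 to 4 (log2 fold change −0.67, SE 0.39, exact permutation p = 0.143). Zbp1, the most abundant RNA sensor with 556 normalized counts per kb, had 2516, 2804, 1513 and 2437 in CCR8− and 1711, 2170, 817 and 1735 in CCR8+ replicates 1 to 4. Both genes had their lowest CCR8− value in replicate 3, below most CCR8+ values, and the log2 fold change of Zbp1 was −0.58 (SE 0.32, exact permutation p = 0.171). The sensors Ifih1, Trim25, Adar and Eif2ak2 had log2 fold changes from −0.38 for Ifih1 to 0.85 for Eif2ak2, the double-stranded RNA-activated kinase PKR.

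Oligoadenylate synthetases, such as those of Oas1a and Oas3, activate RNase L when they bind double-stranded RNA. The genes Oas1a, Oas3, Oasl1, Oasl2 and Ifit2 had wide errors. Oas1a was at 0 in CCR8+ replicate 3 and between 300.5 and 528.4 in the other CCR8+ libraries, against 239.4 to 590.6 in CCR8− cells, and it shares 57.6% of its 50-base words with Oas1g and Oas1b. Oas3 ranged from 124.1 to 282.5 in CCR8− and from 20.5 to 251.8 in CCR8+ cells. Oasl1, Oasl2 and Ifit2 were at 0 in CCR8− replicate 1 and in up to 1 further library each, and the SEs of their log2 fold changes were between 2.08 and 2.18. Oas2 was the gene under the mean of 10, with 63 reads over the 4 CCR8− libraries and 6 over the 4 CCR8+ libraries. Of the 63 reads most came from CCR8− replicate 2, at 41.9 normalized counts, and it was at 0 in 5 of 8 libraries.

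The antiviral effectors had a lower mean in CCR8+ cells for 11 of 12 genes, with a median log2 fold change of −0.46, and none had an unadjusted p under 0.05. Ifi35, an interferon-induced protein, had 2754, 2330, 1605 and 2642 normalized counts in CCR8− and 1324, 1634, 1914 and 1815 in CCR8+ replicates 1 to 4. Only CCR8− replicate 3 lay inside the CCR8+ range (log2 fold change −0.46, SE 0.24, exact permutation p = 0.114). A transcript on the other strand covers 16.8% of the Ifi35 exons. Rsad2 encodes viperin, which makes a chain-terminating ribonucleotide, and had 384, 273, 134 and 717 in CCR8− and 70.3, 235, 34.2 and 262 in CCR8+ replicates 1 to 4. It was lower in CCR8+ cells in each same-numbered pair, with a log2 fold change of −1.51 (SE 0.83, exact permutation p = 0.143), which was −0.83 with replicates 2 and 4 alone.

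Ifitm2 and Ifitm3, membrane proteins that block the entry of viruses, were the most abundant effectors per length, with 26990 and 14598 normalized counts per kb. Ifitm2 had 33317, 21317, 15661 and 13927 normalized counts in CCR8− and 15607, 18214, 14382 and 9004 in CCR8+ replicates 1 to 4 (log2 fold change −0.52, SE 0.33, exact permutation p = 0.229). Ifitm3 had 8888, 11152, 5943 and 9811 in CCR8− and 10415, 10785, 12447 and 9738 in CCR8+ replicates 1 to 4. It was the 1 effector with a higher mean in CCR8+ cells (log2 fold change 0.31, SE 0.23, exact permutation p = 0.200), and the groups overlapped. Ifitm2 shares 48.5% of its 50-base words with other genes and Ifitm3 10.02%, with Ifitm2 among them. The other 8 effectors, which include the ubiquitin-like modifier Isg15, the exonuclease Isg20, the dynamin-like Mx1, the tetherin gene Bst2 and the dNTP hydrolase Samhd1, had log2 fold changes from −2.32 for Ifi44 to −0.10 for Samhd1. Ifi44 was the lowest of the 49 genes per length, at 6.16 normalized counts per kb, with 0 in 3 of 8 libraries.

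The interferon-inducible GTPases, which comprise the guanylate-binding proteins and the immunity-related GTPases, had a lower mean in CCR8+ cells for 8 of 9 genes, with a median log2 fold change of −0.50 and a range of −0.96 to 0.05. Gbp7 had 4031, 2193, 2362 and 2241 normalized counts in CCR8− and 1549, 1799, 1587 and 1743 in CCR8+ replicates 1 to 4. The CCR8− mean was 2707 ± 886 (SD, n = 4) and the CCR8+ mean 1669 ± 120 (SD, n = 4), and CCR8− replicate 1 stood above the other 3 libraries of its group. The groups did not overlap, and the log2 fold change was −0.65 (SE 0.24, exact permutation p = 0.0286, the smallest possible here; limma adjusted p = 0.838). Without CCR8− replicate 1 it was −0.44, and with replicates 2 and 4 alone −0.32. Groups that do not overlap over all libraries cannot overlap over fewer, so these settings do not test the separation. Gbp7 shares 12.7% of its 50-base words with other genes, among them the family members Gbp3 and Gbp11.

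Ifi47, an immunity-related GTPase, had 5511, 3591, 1789 and 2840 normalized counts in CCR8− and 2283, 2719, 801 and 2190 in CCR8+ replicates 1 to 4 (log2 fold change −0.80, SE 0.42, exact permutation p = 0.171). Gbp4 had 1861, 4020, 3380 and 3112 in CCR8− and 3465, 2061, 1073 and 1984 in CCR8+ replicates 1 to 4 (log2 fold change −0.59, SE 0.35, exact permutation p = 0.286). Ifi47 was highest in CCR8− replicate 1, whereas for Gbp4 that library was the lowest and CCR8+ replicate 1 the highest of their groups. Igtp, the GTPase with the highest level per length at 1919 normalized counts per kb, had 3934, 4252, 2693 and 5284 in CCR8− and 5509, 3277, 1816 and 4278 in CCR8+ replicates 1 to 4. Its values overlapped over most of their range (log2 fold change −0.19, SE 0.34, exact permutation p = 0.686), and without CCR8+ replicate 3 the fold change turned to 0.12. The remaining genes, Gbp2, Gbp3, Gbp6, Irgm1 and Iigp1, had log2 fold changes from −0.96 for Iigp1 to 0.05 for Gbp3, and Gbp6 shares 70.7% of its 50-base words with other genes.

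B2m and the heavy chains H2-K1 and H2-D1 were the most abundant of the 49 genes by normalized count, and the median difference of the MHC class I genes was near 0. The 7 genes held 76.7% of the summed mean level of the 49 genes, and per length B2m had 133731, H2-K1 27922 and H2-D1 15660 normalized counts per kb. Their median log2 fold change was 0.02. H2-K1, a classical heavy chain, had 76013, 89751, 62011 and 90078 normalized counts in CCR8− and 70741, 74917, 98966 and 93809 in CCR8+ replicates 1 to 4. The fold change was 0.09 on the log2 scale, with a 95% limma interval from −0.65 to 0.84 (exact permutation p = 0.600), and CCR8− replicate 3 and CCR8+ replicate 3 were the lowest and highest libraries. B2m, the invariant light chain, had 66587, 130894, 65038 and 152292 in CCR8− and 105218, 112752, 133572 and 153718 in CCR8+ replicates 1 to 4. Its interval reached from −0.58 to 1.33 around 0.37 (exact permutation p = 0.314), and CCR8− replicates 1 and 3 were the low libraries.

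The second heavy chain, H2-D1, had 35145, 44390, 29764 and 46826 normalized counts in CCR8− and 37225, 36774, 47321 and 45645 in CCR8+ replicates 1 to 4, a log2 fold change of 0.11 (95% interval −0.50 to 0.72, exact permutation p = 0.457). The heavy chains share sequence with other class I genes, 9.63% of 50-base words for H2-K1 and 12.8% for H2-D1. The peptide transporter genes Tap1 and Tap2 and the loading factor tapasin, Tapbp, had log2 fold changes of 0.02, 0.01 and −0.04. Genes on the other strand cover 18.5% of the Tap2 exons and 24.9% of the Tapbp exons.

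Nlrc5 encodes the transactivator of MHC class I genes. It had 1064, 540, 699 and 797 normalized counts in CCR8− and 175, 325, 440 and 683 in CCR8+ replicates 1 to 4. Only CCR8+ replicate 4 lay within the CCR8− range, and the log2 fold change was −1.05 (SE 0.44, exact permutation p = 0.0571; limma adjusted p = 0.838), or −0.48 with replicates 2 and 4 alone. Per length it was the lowest of the MHC class I genes, at 69.5 normalized counts per kb.

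**Figure D3:**
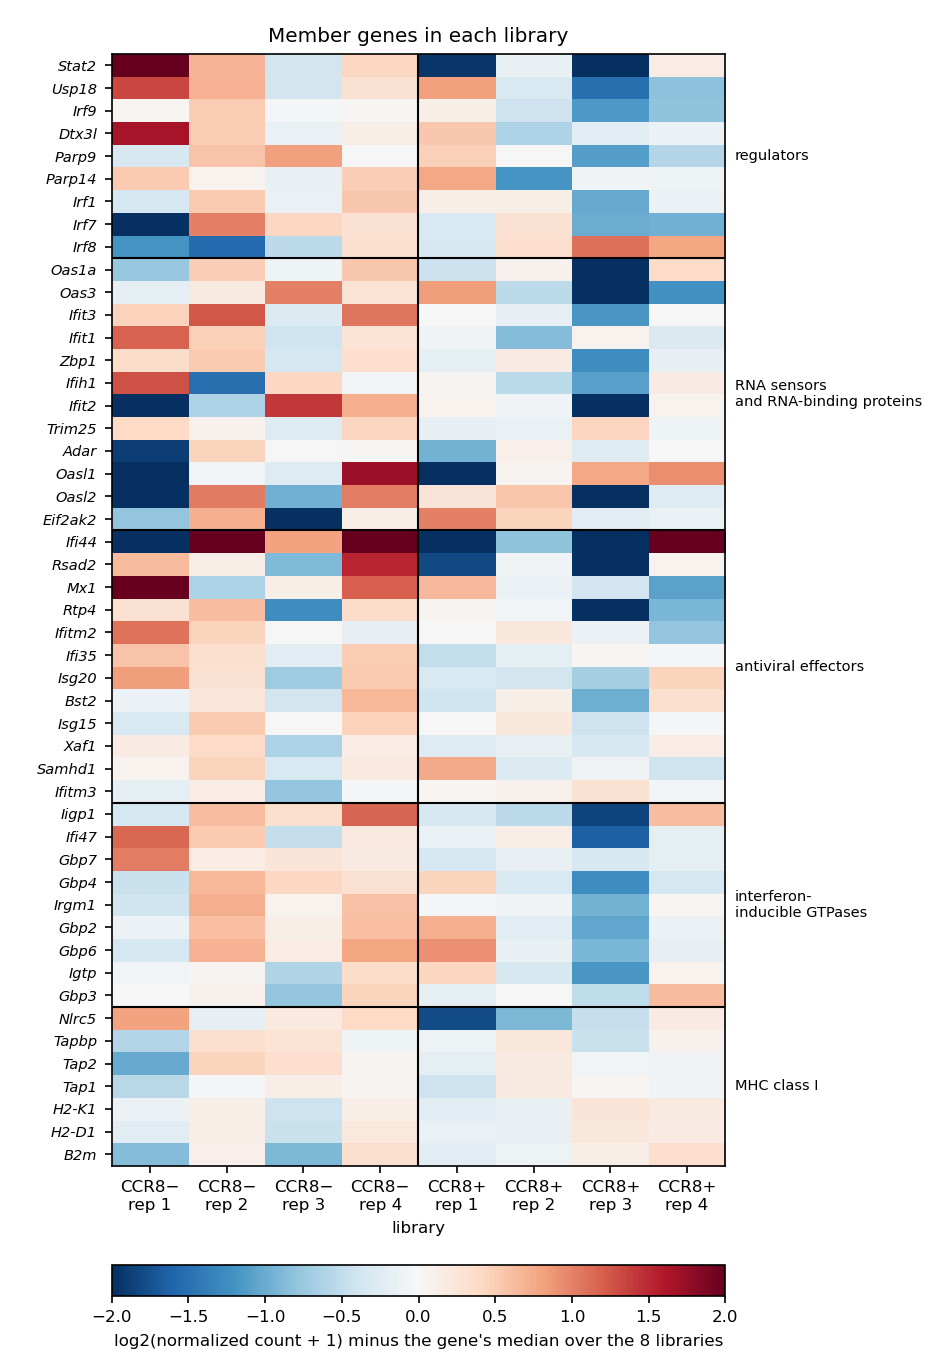
Deviation of each of the 49 genes (rows, by role) in each of the 8 libraries (columns) from the gene's median over the libraries, on the scale of log2(normalized count + 1), with colors limited to −2 and 2. CCR8+ replicate 3 is blue over most rows outside MHC class I, with a median deviation of −0.66, and CCR8− replicate 1 holds both dark red and dark blue rows.

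The libraries of each population differed among themselves in the level of these genes. The median deviation of the 49 genes from their medians over libraries was −0.12, 0.44, −0.15 and 0.33 on the log2 scale in CCR8− replicates 1 to 4. It was −0.11, −0.12, −0.66 and −0.05 in CCR8+ replicates 1 to 4, while over all tested genes it lay between −0.20 and 0.02 in all 8 libraries. CCR8+ replicate 3 thus held the lowest levels, and it had the lowest value of all 8 libraries for 20 of the 49 genes. In that library the GTPases had a median deviation of −1.04 and the MHC class I genes one of 0.02. CCR8− replicate 2 and replicate 4 held the highest levels and no library of the other population matched them. Without CCR8+ replicate 3 the median log2 fold change of the 49 genes was −0.27, and 36 of them still had a lower mean in CCR8+ cells. The fold changes of Irf1, Zbp1, Gbp4 and Ifi47 were then −0.11, −0.28, −0.30 and −0.41, those of Usp18 and Rsad2 −0.59 and −0.95. CCR8− replicate 1 held the highest value of 12 genes, among them Stat2, Ifi47 and Gbp7, and the lowest value of 9. Without it the fold changes of Ifit1 and Ifitm2 were −0.40 and −0.27.

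**Figure D4:**
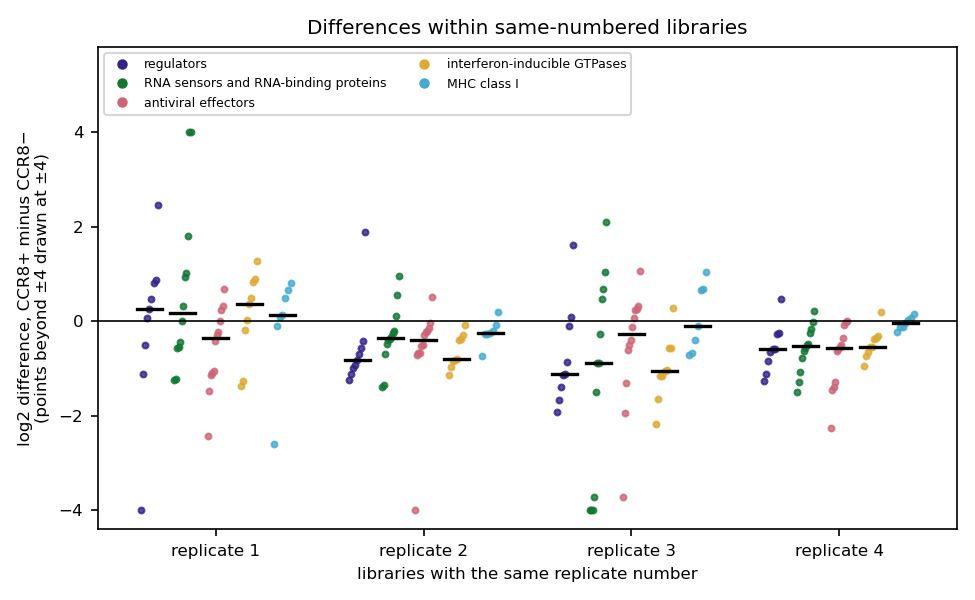
Log2 difference of CCR8+ minus CCR8− within libraries of the same replicate number, 1 point per gene, colored by role, with a black line at the median of each role and points beyond ±4 drawn at ±4. In replicates 2, 3 and 4 the medians of regulators, RNA sensors, antiviral effectors and GTPases lie below 0, while the medians of MHC class I lie between −0.26 and 0.13 in the 4 pairs.

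Within libraries of the same replicate number, the lower value was that of CCR8+ cells for 43 of the 49 genes in replicate 2, for 34 in replicate 3 and for 42 in replicate 4, but for 21 in replicate 1. The median differences were 0.08, −0.41, −0.60 and −0.51 on the log2 scale in replicates 1 to 4, while those of all tested genes lay between −0.01 and 0. Lower in all 4 were 12 of the 49 (24.5%), against 8.1% of all genes: Stat2, Usp18, Dtx3l, Zbp1, Ifit3, Rsad2, Bst2, Ifitm2, Rtp4, Gbp7, Ifi47 and Nlrc5. They came from all 5 roles, with 3 regulators, 2 RNA sensors, 4 antiviral effectors, 2 GTPases and 1 MHC class I gene. Replicates 2 and 4 are the pairs in which no library had unusual zeros, and they were chosen after seeing the data. They hold the 2 CCR8− libraries with the highest levels of these genes, so this choice favors lower values in CCR8+ cells. With these replicates alone the median log2 fold change of the 49 genes was −0.43, against −0.01 for all tested genes, and 44 were lower. The MHC class I genes H2-K1, H2-D1 and B2m then had log2 fold changes of −0.10, −0.15 and −0.10.

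Genes of the same pathways outside the 49 had the same number past the adjusted test, 0 in each list. Of 18 genes for interferon-γ, interferon receptors and their signaling, 12 had a lower mean in CCR8+ cells (66.7%, against 47.6% of all genes). The median over these 18 was −0.29 on the log2 scale. At an unadjusted limma p under 0.05, 2 were lower, against 2.29% of all genes, and 1 was higher, against 2.8%. The groups did not overlap for 2 lower genes, against 2.03% of all genes, and for 1 higher gene, against 2.37%. Ifngr2, a chain of the interferon-γ receptor, had 1184, 1312, 665 and 1085 normalized counts in CCR8− and 656, 577, 366 and 231 in CCR8+ replicates 1 to 4, with no overlap (log2 fold change −1.28, SE 0.39). Pias1, an inhibitor of STAT signaling, also had no overlap (−1.42, SE 0.46). Stat3, which acts downstream of interleukins such as IL-6, had all 4 CCR8+ values above the CCR8− values, from 3842 to 7558 against 2801 to 3609 (0.71, SE 0.24).

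Among 43 tested interferon-stimulated genes outside the 49, 25 had a lower mean in CCR8+ cells, with a median log2 fold change of −0.18. Of these 43, 6 were lower (2.29% of all genes) and 0 higher (2.8%) at an unadjusted p under 0.05, and 15 were lower in all 4 same-numbered pairs (8.1%). Trim12a, of the TRIM5-related family, had 1341, 1582, 862 and 1027 normalized counts in CCR8− and 269, 585, 216 and 459 in CCR8+ replicates 1 to 4, with no overlap (log2 fold change −1.73, SE 0.38). It had the smallest limma p of this list, followed by the GTPase Tgtp2 and the nuclear body protein Sp100, with log2 fold changes of −1.21 (SE 0.39) and −0.62 (SE 0.22). Cmpk2, a mitochondrial nucleotide kinase named after its values were seen, also had no overlap. It had 280, 286, 504 and 191 normalized counts in CCR8− and 0, 106, 0 and 94.0 in CCR8+ replicates 1 to 4. Its zeros lie in the CCR8+ libraries that lacked 44 and 36 genes abundant elsewhere. Of the 43 genes, 2 were lower without overlap, against 2.03% of all genes, and 0 higher, against 2.37%. Of 15 other genes of the MHC class I pathway 6 had a lower mean (40%), with a median log2 fold change of 0.04 and 0 at an unadjusted limma p under 0.05. Without overlap, 1 was lower, against 2.03% of all genes, and 1 was higher, against 2.37%. These were H2-T24 (log2 fold change −2.84, SE 1.51), which was at 0 in CCR8+ replicate 1, and Pdia3 (0.29, SE 0.20).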

How the data were processed

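Gene expression was analyzed in 8 bulk RNA-Seq libraries from DTx-treated mice, 4 of CCR8+ and 4 of CCR8− CD4+ Tconv cells, whose labels name the population and the replicate. The study describes biological replicates isolated on one day, but no source used here states whether a replicate number stands for a mouse, so p-values measure the spread between these libraries.

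RNA was amplified with a low-input SMARTer kit. According to the study's methods, the authors checked reads with FastQC, trimmed them with Cutadapt, aligned them to NCBIM37 (mm9) with hisat2, and normalized uniquely mapped reads to library size with intergenic reads. The submitters' processing notes also name HTSeq and DESeq2. Versions of these tools, and whether strand was used, are not given in the sources used here. The deposited table holds 1 signal value for each gene in each library, termed a normalized count here. The values were whole multiples of the value of 1 read (0.735 to 1.14) in 100% of cases at a tolerance of 0.001, so whole reads were recovered. Limits at 3 reads cover counting error only.

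The 50 genes, their roles and the pathway and marker lists were chosen with earlier results of these data known. Values were used without further scaling. A pseudocount of 1 was added before taking log2, genes under a mean of 10 were left out, and the remaining 11032 were fitted with limma 3.58.1 (R 4.3.3), the prior variance following the mean level. P-values were adjusted by the Benjamini-Hochberg method and called under 0.05. This scale understates the change of low genes but gives a large weight to single zeros (Oas1a, −2.21 in limma and −0.50 in edgeR). Single genes also had an exact two-sided permutation test over the 70 assignments of the labels. Values in every library are given for genes whose groups did not overlap and, in each role, for those with the 2 smallest limma p-values and the 2 highest means. Stat2, Usp18, Gbp4 and H2-D1 were added after their values were seen. Irf7 was also given in full but does not enter the closing sections' counts of genes with values in every library.

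The results were recomputed with 3 other scalings, a pseudocount of 0.1 or 10, a minimum mean of 100 or none, the replicate number as a block, limma without trend or with library quality weights, edgeR 4.0.16 and DESeq2 1.42.0 on the recovered reads, leaving out each library, and, chosen after seeing the data, replicates 2 and 4 alone. In simulated data with the spread of these libraries and 200 of 11019 genes shifted by 3 on the log2 scale, limma recovered 91 with 4 false calls. Lengths, overlaps and shared 50-base words came from GENCODE M21 (GRCm38), and promoters from RefSeq GRCm38.p6. Neither is the build of the files, so no coordinates of the measured genes are given.

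Some marker genes are not reported here.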

Additional observations from a re-analysis of the deposited data

Results flagged for a closer look

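In 3 of 40 groups of 4 libraries examined, for the 20 genes with values in every library, a single library lay far from the other 3 by Dixon's test on the log2 scale (the gap to the nearest library over the range of the group), where chance alone gives about 1 in 20. Irf9 had 1999.96 normalized counts in CCR8− replicate 2, against 1374 to 1441 in the other CCR8− libraries. Ifit3 had 134.6 in CCR8+ replicate 3, against 270.4 to 304.8 in the other CCR8+ libraries. Gbp7 had 4031 in CCR8− replicate 1, against 2193 to 2362 in the other CCR8− libraries.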

How the results depend on the processing

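No scaling, pseudocount, limit on the mean or left-out library changed the count of 0 among the 49 genes called, and their median log2 fold change stayed between −0.53 and −0.39 over the alternatives that kept all 8 libraries, and between −0.57 (without CCR8+ replicate 1) and −0.27 (without CCR8+ replicate 3) when 1 library was left out. edgeR called 0 of all genes, with 487 at an unadjusted p under 0.05, and limma 0, with 562. The count over all genes was 2 without the intensity trend, 26 with DESeq2 (adjusted p not given for 8773 genes, 27 of the 49 among them) and 112 with library quality weights, where 3 of the 49 were called and 44 rather than 37 were lower, and the fold changes of Stat2, Rsad2, Gbp7 and Nlrc5 shrank to −0.99, −0.69, −0.36 and −0.53. A replicate block brought the count to 1 in limma, 124 in DESeq2 and 0 in edgeR, with 0 of the 49 called in each. Deviations of same-numbered libraries correlated by 0.068, 0.138, 0.108 and 0.217, and 7 of 8 libraries correlated best with their own number, which is a hint from the data and not a stated pairing. The number of the 49 whose groups did not overlap was 2 with each library scaled to the same total, against 4.08% of all genes. It was between 1 and 9 when 1 library was left out, against 6.34% to 8.77% of all genes. With replicates 2 and 4 alone, which hold the 2 CCR8− libraries with the highest levels of these genes, it was 29. In that setting 34% of all genes did not overlap. Among the 20 genes with values in every library, signs turned for 5 that were not called: H2-D1 to −0.031 with quantile normalization, H2-K1 to −0.085, H2-D1 to −0.099 and B2m to −0.0010 with library quality weights, and Ifitm3 to −0.030, H2-K1 to −0.10, H2-D1 to −0.15 and B2m to −0.10 with replicates 2 and 4 alone. With 1 library left out, Igtp ranged from −0.42 to 0.12, H2-K1 from −0.022 to 0.17 and H2-D1 from −0.012 to 0.21. The cause of these changes was not tested. In the simulation with the spread of these libraries 91 of 200 changes of 3 on the log2 scale were recovered. The changed genes were drawn at random from all tested genes, so this does not say how many changes in the 49 would be recovered. Smaller differences may not be detectable with 4 libraries a group.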
